A study of Rattus norvegicus with 15 samples.

Results

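Bone of ovariectomized rats (Model) was compared with bone of untreated rats (Blank) over all genes, with the skeletal muscle signal set aside. The comparison took 6 of the 15 libraries of the series, 3 of each group, all from female Sprague-Dawley rats. Model rats carry the condition label osteoporosis and had their ovaries removed, the chief source of oestrogen. Blank rats carry no treatment. No sham operation is named in the labels, so the operation itself and the loss of ovarian hormones cannot be told apart, and neither the age of the animals nor the number of animals behind a library is given in the labels. The p-values therefore measure the spread between libraries, which may be partly technical. The other 9 libraries come from ovariectomized rats in groups known here only as SYT, YJT and YJZYT, and they served to estimate the spread and to say which genes move with muscle. RNA was measured by bulk poly(A) RNA sequencing, in which fewer cells of a type and less RNA per cell cannot be told apart.

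Bone is a mixed tissue of osteoblasts, osteocytes and osteoclasts around a marrow of blood-forming cells, fat cells and vessels, and pieces of attached muscle can come with it. Oestrogen restrains bone resorption, and its loss is known to raise bone turnover, marrow fat and lymphocyte numbers in rodents. Mitochondrial oxidation turns fatty acids and sugars into acetyl-CoA, feeds it into the TCA cycle and passes the electrons to a respiratory chain whose subunits are encoded partly in the nucleus and partly in the mitochondrial genome.

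Depth was even, with 64735848 to 68542917 counts in each of the 6 libraries. Bone genes were abundant on both sides: Col1a1, the main collagen chain of bone, lay at 16700 to 43400 CPM (counts scaled to the library total) in Model and at 9220 to 31200 CPM in Blank. Transcripts of 189 genes of skeletal muscle took 0.232% ± 0.115 of the counts in Model and 1.31% ± 0.319 in Blank (SD, n = 3 each). The exact two-sided permutation p for that share was 0.1, the smallest that 3 against 3 libraries can give. The libraries differed in other ways too: haemoglobin transcripts took 6.35% ± 2.91 in Model and 10.6% ± 2.85 in Blank, and transcripts of the mitochondrial genome took 11.3% ± 1.93 in Model and 8.07% ± 2.37 in Blank, with exact permutation p of 0.3 and 0.2.

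A gene is called separating here when its 3 Model libraries all lay above, or all lay below, its 3 Blank libraries in scaled CPM. Of 17657 genes tested, 1358 separated higher in Model (7.69%) and 1410 lower (7.99%). Among random orderings of 3 against 3 libraries, a share of 0.1 separates completely, counting both directions. Separation alone is therefore weak evidence for any single gene. Of the 189 muscle genes, 169 separated lower and 0 higher, with a median log2 fold change of -2.40. Outside these, 1241 genes separated lower, and 535 of them (43.1%) also followed muscle in the 9 libraries of the other groups (Pearson r of 0.5 or more with a muscle score, against 14.9% of all genes outside the muscle lists). Those 9 libraries come from groups that differ in muscle score, so r also takes in differences between groups. A low r does not show that a gene is free of the muscle signal. On the higher side 88 genes (6.48%) had an r of -0.5 or less, against 14.1% of all genes outside the muscle lists. Setting aside the genes that followed muscle left 706 genes lower in Model beyond the muscle signal (4.0% of the genes tested) and 1270 genes higher (7.19%). Their median log2 fold changes were -0.57 and 0.53, so most differences were under 2-fold, with 202 genes below -1 and 269 above 1. The excess of higher genes arose from setting muscle aside, since 1358 separated higher and 1410 lower before it.

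The genes that passed the test were all members of the muscle lists. The quasi-likelihood test of edgeR with Benjamini-Hochberg adjustment called 4 genes at 0.05 (0.0227%), Mlf1, Sh3bgr, Adssl1 and Pkia, all lower and all in the muscle lists. The muscle lists were chosen with earlier results of these data known, so the place of these genes in them is no independent finding. The 4 genes followed muscle in the other groups (r of 0.876 to 0.982). With the muscle score as a covariate they stayed lower, at log2 fold changes from -1.91 to -1.23. Outside the muscle lists no gene passed, although 1446 genes had an unadjusted p under 0.05 (3.96% of genes on the higher side and 4.23% on the lower). DESeq2 called 62 genes higher (0.351%) and 227 lower (1.29%), of which 54 and 36 were separating genes beyond muscle. The differences described from here on are therefore separations of libraries and not calls of the main test, unless a test is named.

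Among single genes on the lower side, those with the smallest p were led by mitochondrial and lipid genes. Nipsnap2, which encodes a mitochondrial protein of the NIPSNAP family, was at 38.7, 44.2 and 41.8 CPM in Model and at 59.7, 71.9 and 72.3 CPM in Blank. Its Model values were tightly grouped and far from overlap, with a log2 fold change of -0.71 (SE 0.13). It lies on the minus strand of chromosome 12 (30527540 to 30566032 in the files' own coordinates, for which no build is named). Slc25a25, an ATP-magnesium and phosphate carrier of the inner mitochondrial membrane, was at 19.6, 24.8 and 17.1 CPM in Model and at 40.2, 33.7 and 31.8 CPM in Blank. Etfa, a subunit of the flavoprotein that takes electrons from acyl-CoA dehydrogenases, was at 58.6, 57.8 and 42.9 CPM in Model and at 80.6, 101 and 87.6 CPM in Blank. Hadhb, the thiolase subunit of the mitochondrial trifunctional protein, was at 93.6, 91.4 and 92.6 CPM in Model and at 134, 125 and 149 CPM in Blank. Each of these 3 genes had all Model libraries below all Blank libraries by a clear gap, and none of them followed muscle in the other groups (r of 0.05, -0.04 and 0.35).

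The same side held signalling and vessel genes. Gpihbp1, the capillary protein that carries lipoprotein lipase to the vessel lumen, was at 7.33, 3.76 and 5.95 CPM in Model and at 16.3, 11.1 and 21.2 CPM in Blank (log2 fold change -1.51, SE 0.37). Net1, an exchange factor for the GTPase RhoA, was at 185, 93.3 and 147 CPM in Model and at 374, 266 and 300 CPM in Blank. Prkaa2, a catalytic subunit of the energy sensor AMP-activated protein kinase, was at 2.02, 0.435 and 1.18 CPM in Model and at 5.85, 2.53 and 6.36 CPM in Blank. The gap of Prkaa2 was narrow, and its r with muscle of 0.45 lay just inside the limit. Cib2, a calcium-binding protein, and Sox15, a transcription factor, had log2 fold changes of -1.20 (SE 0.30) and -2.65 (SE 0.65), Sox15 at 0.0983 to 0.253 CPM in Model and at 0.927 to 1.04 CPM in Blank. RGD1563601 separated by the smallest margin, at 2.07 CPM in its highest Model library against 2.13 CPM in its lowest Blank library.

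On the higher side, the genes with the smallest p-values had varied roles. Pigv, a mannosyltransferase of GPI anchor synthesis, was at 14.0, 21.9 and 17.7 CPM in Model and at 10.3, 8.62 and 8.81 CPM in Blank. Elavl1, the RNA-stabilizing protein HuR, was at 45.2, 79.8 and 60.7 CPM in Model and at 32.1, 37.4 and 30.3 CPM in Blank (log2 fold change 0.90, SE 0.22). Phf8, a histone demethylase, was at 47.0, 55.2 and 54.6 CPM in Model and at 38.3, 33.3 and 35.4 CPM in Blank. For these 3 genes the groups did not overlap, and Model2 was the highest library of each. Satb1, a chromatin organizer of developing T cells, had 28.6, 30.1 and 35.0 CPM in Model against 23.7, 20.8 and 18.9 CPM in Blank, and Pagr1, a partner of histone methyltransferases, had a log2 fold change of 0.72 with an SE of 0.18.

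Mitochondrial genes were not all lower. Rhot2, a GTPase that moves mitochondria along microtubules, was at 30.3, 44.4 and 40.0 CPM in Model and at 22.3, 22.2 and 21.3 CPM in Blank. Fastkd1, a regulator of mitochondrial RNA, was at 15.9, 19.1 and 23.0 CPM in Model and at 10.2, 10.3 and 11.2 CPM in Blank. Both had a tight Blank group and no overlap. Klhl9 and Kctd11, adaptors of ubiquitin ligases, had log2 fold changes of 0.54 (SE 0.13) and 0.89 (SE 0.21). The cation channel gene Trpv2 had 0.73 (SE 0.18) and the zinc finger gene Zfp322a had 0.81 (SE 0.21).

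Across these 24 genes, 12 in each direction, the edgeR adjusted p-values ran from 0.198 to 0.306 on the higher side and from 0.196 to 0.307 on the lower. The genes were picked by smallest edgeR p among separating genes of the same libraries, so agreement of further fits was largely set by that choice. DESeq2 called 12 of 12 in each direction. With the muscle score as a covariate, 12 of 12 kept their direction on each side and 9 of 12 on each side had an unadjusted p under 0.05. The muscle scores of Model (-0.844, -2.31 and -0.169) did not overlap those of Blank (1.54, 1.26 and 1.85), so that fit draws its slope from the variation within groups. That fit also moved the median of the muscle contractile list from -2.65 to 0.499, with 38 of 50 genes higher. The muscle calcium, energy and other lists had medians of -0.0834, -0.0672 and 0.0772 there. A list that crosses 0 in that fit is therefore not shown to depend on muscle.

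**Figure D1:**
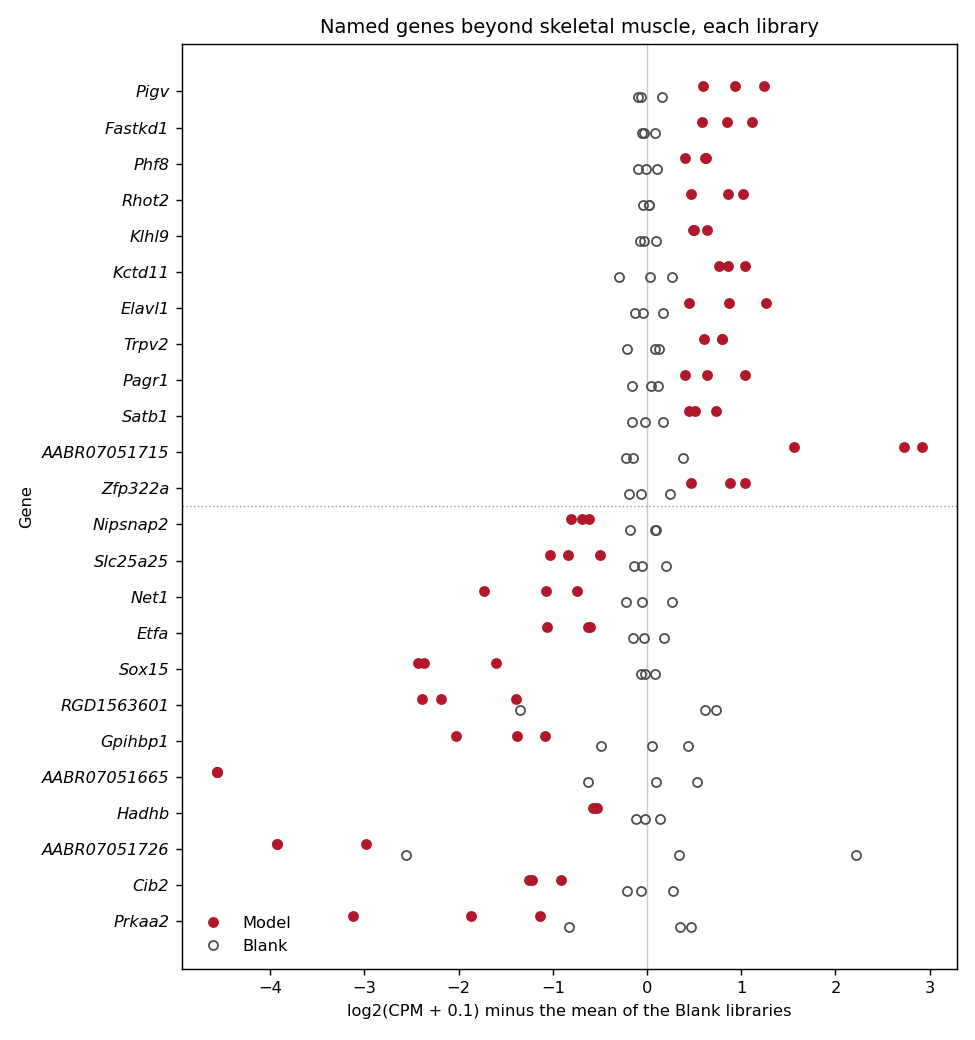
Each row is a gene named by rule beyond the muscle lists, and each point is 1 library, plotted as log2(CPM + 0.1) minus the mean of the 3 Blank libraries; filled points are Model and open points Blank. The upper 12 genes are higher in Model and the lower 12 are lower, with no overlap in any row and the narrowest gap in RGD1563601.

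Of 52 lists of cell type and pathway genes, 13 had a share of members separating lower of at least 3 times that of all genes, with 3 or more such members, and 3 had such a share separating higher. These lists are described next, followed by those of bone cells and oestrogen response. All lists were chosen with earlier results of these data known, so their counts describe and do not test.

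Genes of mitochondrial oxidation encoded in the nucleus were lower in Model together. In the lists for fatty acid oxidation, the TCA cycle with its entry reactions and the nuclear subunits of the respiratory chain, 69 of 74 genes were lower in Model and 37 separated lower (50.0%), against 7.99% of all genes, while 0 separated higher. None of the 74 passed the main test, with a smallest edgeR adjusted p of 0.246, and 31 had an unadjusted p under 0.05. Of the 37 that separated, 25 did not follow muscle in the other groups, beside 706 of all 1241 genes separating lower outside the muscle lists. Fatty acid oxidation fell below that share, and the TCA cycle and nuclear chain lists lay above it. The joint median log2 fold change was -0.31, against 0.02 over all genes tested, and -0.42 with the muscle score as a covariate. A low median in that fit was not particular to oxidation. Cytosolic ribosomal proteins had -0.70, the proteasome -0.55 and neutrophil genes -0.80, while chondrocyte genes had 2.61 and all genes 0.04.

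Fatty acid oxidation showed the widest difference of the 3 lists. All 19 members were lower, 13 separated (68.4%), 5 of these without following muscle, and the median log2 fold change was -0.55. It stayed between -0.62 and -0.50 when any 1 of the 6 libraries was left out. Hadh, which oxidizes hydroxyacyl-CoA, was at 25.8, 24.4 and 25.4 CPM in Model and at 40.5, 35.7 and 43.5 CPM in Blank. Acadm, the medium-chain acyl-CoA dehydrogenase, was at 52.3, 57.1 and 58.5 CPM in Model and at 70.6, 91.3 and 101 CPM in Blank, and Acadl, the long-chain enzyme, was at 55.8, 55.7 and 54.7 CPM in Model and at 80.6, 78.1 and 89.9 CPM in Blank. The Model libraries agreed closely for each of these enzymes and stood apart from Blank. Hadh and Acadm followed muscle in the other groups (r of 0.81 and 0.77), while Acadl stood just over the limit (0.52) and Etfa and Hadhb below it.

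The trifunctional protein is built from the products of Hadha and Hadhb, and both separated. Hadha was at 110, 95.8 and 114 CPM in Model and at 141, 116 and 139 CPM in Blank, a smaller gap than that of Hadhb. In the RefSeq promoter table for GRCr8 the start sites of the genes lie 301 bases apart on opposite strands of chromosome 6, so that their promoter windows (250 bases before to 50 after the start) overlap by 200 bases. The letters AAGGTCA, the core of the response element of the ERR nuclear receptors that act on oxidation genes, were searched on both strands of all such windows, apart from the only other motif searched, CACGTG. They occurred in 4.37% of 27457 promoters, in 3 of the 61 oxidation genes with a promoter in the table (4.92%) and in 2 of the 30 that separated lower (6.67%), Hadhb and Atp5f1a. These shares were near that of all promoters, and a match describes the letters, not a binding site. The windows of both genes are shown because they carry the match, in capitals, here on the reverse strand as TGACCTT. Hadhb lies at chr6:31907451-31907750, minus strand, with the match from base 43 after the start. Atp5f1a, a subunit of ATP synthase, lies at chr18:73567287-73567586, plus strand, with the match from base -33.
Hadhb: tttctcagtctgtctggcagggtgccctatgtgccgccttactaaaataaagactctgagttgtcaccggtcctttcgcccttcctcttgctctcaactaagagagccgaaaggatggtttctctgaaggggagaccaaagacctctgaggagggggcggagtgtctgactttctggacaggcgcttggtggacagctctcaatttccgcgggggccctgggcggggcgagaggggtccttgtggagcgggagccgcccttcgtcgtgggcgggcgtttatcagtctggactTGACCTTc
Atp5f1a: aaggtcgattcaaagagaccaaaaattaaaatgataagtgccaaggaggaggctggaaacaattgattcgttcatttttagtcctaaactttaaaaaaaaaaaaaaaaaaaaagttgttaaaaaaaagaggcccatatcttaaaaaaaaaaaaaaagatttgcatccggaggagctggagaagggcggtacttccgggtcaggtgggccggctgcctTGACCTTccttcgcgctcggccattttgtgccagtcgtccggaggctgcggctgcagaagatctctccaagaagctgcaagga

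The TCA cycle list had 18 of 19 members lower and 13 separating lower (68.4%), of which 10 did not follow muscle, with a median log2 fold change of -0.31. Idh3g, a subunit of isocitrate dehydrogenase, was at 54.7, 57.5 and 52.8 CPM in Model and at 75.3, 77.7 and 77.6 CPM in Blank. Pdha1, which passes pyruvate carbon into the cycle as part of pyruvate dehydrogenase, was at 138, 152 and 148 CPM in Model and at 187, 190 and 183 CPM in Blank. Both had narrow groups and a clear gap, with log2 fold changes of -0.48 (SE 0.14) and -0.35 (SE 0.13). Got1 and Got2, the aspartate aminotransferases of the cytosol and the mitochondrion, had -0.48 (SE 0.15) and -0.59 (SE 0.18), and Got1 followed muscle closely (r of 0.88). Citrate synthase, Cs, overlapped between the groups, at 72.0 to 101 CPM in Model and at 89.7 to 118 CPM in Blank.

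In the respiratory chain, the parts from the nucleus and from the mitochondrial genome lay on opposite sides. Of 36 nuclear subunits, 32 were lower in Model and 11 separated lower (30.6%), 10 of them without following muscle, with a median of -0.27. Ndufa9, a subunit of complex I, was at 52.2, 58.8 and 52.1 CPM in Model and at 68.3, 76.7 and 78.2 CPM in Blank, and Cox5b, a subunit of cytochrome c oxidase, was at 76.3, 75.2 and 59.2 CPM in Model and at 103, 95.4 and 101 CPM in Blank. Uqcrc1, a core subunit of complex III, had a log2 fold change of -0.44 (SE 0.15). Atp5f1c, of ATP synthase, had -0.52 (SE 0.14), but its entry also covers the overlapping gene Taf3 in the table's description, and its counts are uncertain. The groups did not overlap for any of these 4 subunits. All 13 chain genes of the mitochondrial genome were higher in Model (median 0.42, from 0.14 without Blank1 to 0.74 without Blank2), and 0 of the 13 separated: Mt-co1, the catalytic subunit of cytochrome c oxidase, lay at 26200, 37000 and 35100 CPM in Model and at 18300, 29700 and 21000 CPM in Blank. The median of the nuclear list ran from -0.40 without Blank1 to -0.18 without Blank2.

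Ribosomal protein genes did not separate beyond the background. Of 69 mitochondrial ribosomal proteins 2 separated lower and 1 higher, and of 81 cytosolic ribosomal protein entries 0 separated in either direction, with median log2 fold changes of 0.02 and 0.04. Both medians changed sign without Blank1, Blank3 or Model2, and with the muscle score as a covariate they were -0.48, with 63 of 69 genes lower, and -0.70, with 81 of 81 entries lower. Slc25a25, Nipsnap2 and Samm50, an outer membrane assembly protein chosen after its values were seen, are in none of these lists. Samm50 was at 54.5, 45.2 and 47.8 CPM in Model and at 73.5, 65.8 and 79.7 CPM in Blank, again without overlap.

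**Figure D2:**
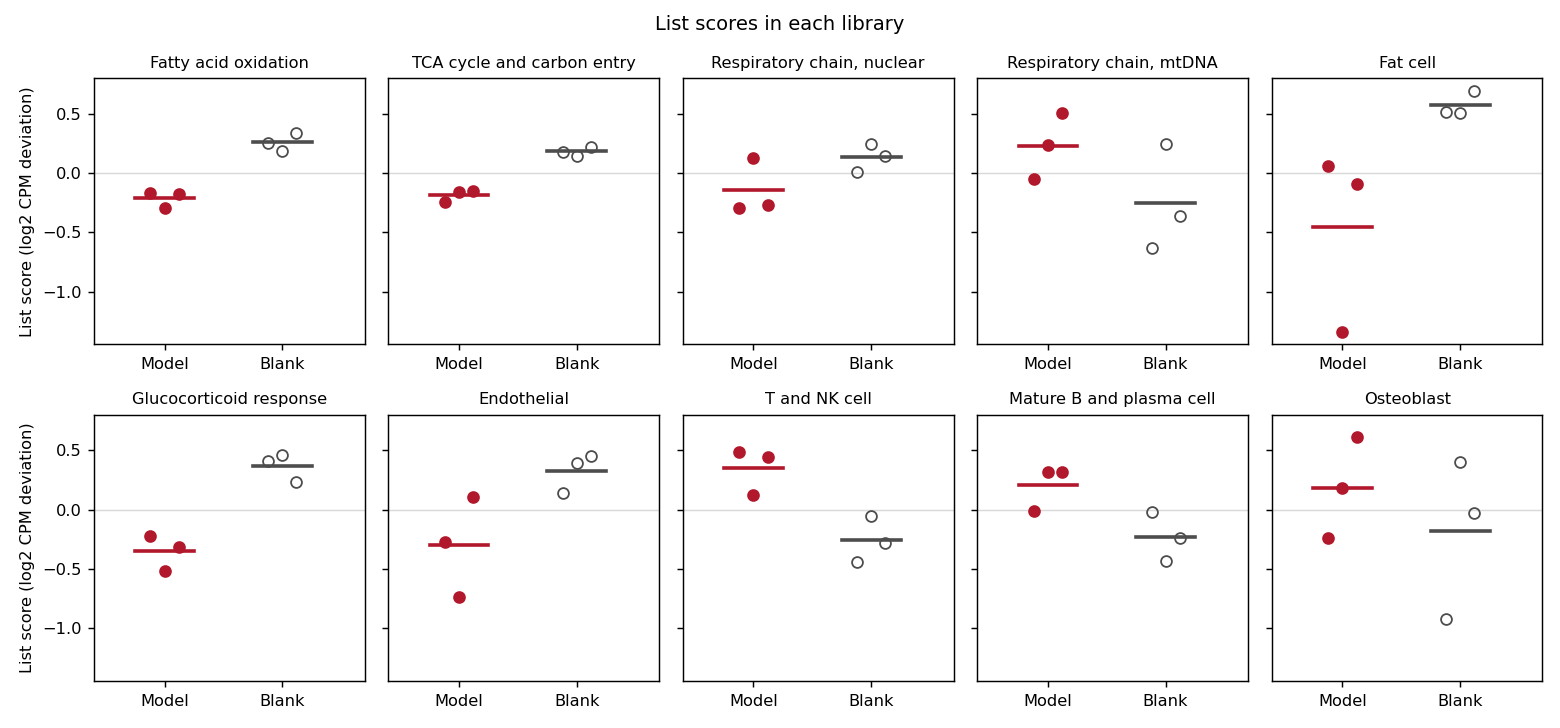
Each point is the score of a gene list in 1 library, and bars are group means. The score is the median over the list's genes of log2 CPM minus the mean of the Model and Blank libraries. Model lies below Blank without overlap for fatty acid oxidation, the TCA cycle, fat cell, glucocorticoid response and endothelial genes and above it for T and NK cell and mature B and plasma cell genes, while nuclear and mitochondrial chain genes and osteoblast genes overlap.

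Fat cell genes were lower in Model, with 1 library far below the others. Of 20 members 16 were lower and 8 separated lower (40.0%), 3 of them without following muscle, with a median log2 fold change of -0.92. Fabp4, the fatty acid carrier of fat cells and capillaries, was at 82.3, 23.2 and 57.0 CPM in Model and at 193, 178 and 255 CPM in Blank (log2 fold change -1.95, SE 0.39, edgeR adjusted p = 0.198). Lpl, lipoprotein lipase, was at 71.6, 43.9 and 106 CPM in Model and at 155, 151 and 216 CPM in Blank. Cidec, a lipid droplet protein, was at 3.26, 0.899 and 2.69 CPM in Model and at 6.76, 9.95 and 8.23 CPM in Blank, and Pck1, of glyceroneogenesis, was at 4.90, 0.140 and 7.04 CPM in Model and at 17.8, 10.5 and 24.3 CPM in Blank. Model2 was the lowest library for all 4 genes, and no Model library reached Blank. Adipoq, the hormone gene most particular to fat cells, overlapped, at 20.9, 1.50 and 11.9 CPM in Model and at 16.3, 29.1 and 29.0 CPM in Blank. The list's median was -0.45 without Model2 and -0.03 with the muscle score as a covariate. The part of muscle in these values was not tested further.

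Targets of the PPAR receptors, which fatty acids activate, had 4 of 16 members separating lower (25.0%), all following muscle, and 1 higher. Pdk4, the kinase that restrains pyruvate dehydrogenase, was at 9.61, 0.871 and 13.6 CPM in Model and at 71.2, 35.7 and 78.4 CPM in Blank, with an r of 0.94 with muscle. Txnip, which binds thioredoxin and limits glucose uptake, was at 273, 184 and 254 CPM in Model and at 491, 339 and 386 CPM in Blank. Acot2, a mitochondrial thioesterase, and Plin5, of lipid droplets, had log2 fold changes of -0.67 (SE 0.23) and -2.65 (SE 1.06). All 4 separated, yet the list's median of -0.39 was -0.06 without Model2, -0.68 without Model1 and 0.22 with the muscle score.

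Genes of insulin and FoxO signalling had 6 of 20 members separating lower (30.0%), 4 of them without following muscle, and Sesn3 higher. Klf15, a transcription factor of fasting metabolism, was at 2.70, 2.74 and 3.28 CPM in Model and at 9.13, 7.75 and 6.35 CPM in Blank. Pik3ip1, an inhibitor of PI3 kinase, was at 7.87 to 10.6 CPM in Model and at 13.0 to 16.0 CPM in Blank, and Foxo4, a FoxO transcription factor, separated by the narrowest margin, at 53.4 to 61.5 CPM in Model and at 61.5 to 90.9 CPM in Blank. Sesn3, a sestrin, lay the other way, at 17.1, 21.1 and 20.4 CPM in Model and at 16.0, 11.7 and 11.9 CPM in Blank. The list's median of -0.27 was -0.15 without Model2, -0.46 without Model1 and -0.02 with the muscle score.

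Genes that glucocorticoids induce were lower in Model. Of 19 members 16 were lower and 10 separated lower (52.6%), and the median log2 fold change was -0.59, though only 2 of the 10 did not follow muscle. Per1, a clock gene with a glucocorticoid response element, was at 17.9, 13.3 and 22.4 CPM in Model and at 74.5, 54.6 and 66.9 CPM in Blank (log2 fold change -1.87, SE 0.37, edgeR adjusted p = 0.196). Tsc22d3, which encodes the glucocorticoid-induced leucine zipper, was at 90.5, 99.9 and 89.5 CPM in Model and at 188, 177 and 165 CPM in Blank. Errfi1, a feedback inhibitor of the EGF receptor, was at 50.5, 18.5 and 57.6 CPM in Model and at 165, 124 and 158 CPM in Blank. The groups did not overlap for any of these 3 genes, and in each the highest Model library lay well below the lowest Blank library. Nr3c1, the gene of the glucocorticoid receptor, was on the other side, at 110, 130 and 112 CPM in Model and at 107, 93.0 and 101 CPM in Blank. The median stayed lower, at -0.39, with the muscle score as a covariate, and Per1 and Tsc22d3 had -1.42 and -0.95 there.

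Clock genes and immediate early genes overlapped with these. In the circadian list, 6 of 20 members separated lower (30.0%), 5 of them following muscle. Usp2, a deubiquitinase with a daily rhythm, was at 2.32, 2.37 and 3.55 CPM in Model and at 11.2, 6.17 and 9.72 CPM in Blank, and Arntl, which encodes the activator BMAL1, was at 11.1, 9.31 and 10.8 CPM in Model and at 14.7, 16.3 and 17.2 CPM in Blank. The groups did not overlap for either gene, and both followed muscle in the other groups (r of 0.91 and 0.6). The hour at which bone was taken is not given in the labels, and its part in these values was not tested. The circadian median of -0.40 was -0.21 without Model2, -0.64 without Model3 and 0.23 with the muscle score.

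Of 26 immediate early genes, which many cells switch on within minutes of a stimulus, 8 separated lower (30.8%), 7 of them following muscle. Nr4a1, an orphan nuclear receptor, was at 16.1, 6.71 and 12.3 CPM in Model and at 45.4, 26.1 and 48.7 CPM in Blank, and its relative Nr4a3 was at 0.660, 0.295 and 1.26 CPM in Model and at 8.40, 2.66 and 10.1 CPM in Blank. Maff and Fosb had log2 fold changes of -1.38 (SE 0.50) and -2.39 (SE 1.11). All 4 genes separated, and Fosb rested largely on Blank3 at 13.1 CPM beside 2.03 and 2.00 CPM in the other Blank libraries. The list's median was -0.13, or -0.32 without Model1, and 0.06 with the muscle score.

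The letters CACGTG, the E-box that clock activators bind, read alike on both strands and were searched in the same promoter windows. They occurred in 6.65% of all promoters, in 7 of 33 clock and glucocorticoid genes with a promoter in the table (21.2%), and in 1 of the 14 that separated lower (7.14%). That gene is Gadd45g, a growth arrest gene, at chr17:13530302-13530601 of GRCr8, minus strand, with the match in capitals from base -163. Its window is shown as the only one among the separating genes with the match.
Gadd45g: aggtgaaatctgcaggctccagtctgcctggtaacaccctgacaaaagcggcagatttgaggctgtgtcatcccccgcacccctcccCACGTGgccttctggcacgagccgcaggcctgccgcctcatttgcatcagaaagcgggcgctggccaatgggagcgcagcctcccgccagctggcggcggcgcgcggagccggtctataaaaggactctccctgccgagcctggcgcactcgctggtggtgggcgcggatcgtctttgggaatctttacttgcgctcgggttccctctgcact
Gadd45g was at 10.2, 14.4 and 13.4 CPM in Model and at 25.2, 24.4 and 29.6 CPM in Blank. The other promoter matches belonged to genes whose libraries overlapped between the groups or that separated higher.

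Vessel genes were lower in Model. Of 24 endothelial genes 20 were lower and 10 separated lower (41.7%), 2 of them without following muscle, with a median of -0.58. Apold1, an early response gene of endothelial cells, was at 30.9, 24.9 and 27.3 CPM in Model and at 47.1, 47.8 and 51.6 CPM in Blank (log2 fold change -0.82, SE 0.18, edgeR adjusted p = 0.246). Sox17, a transcription factor of arterial endothelium, was at 3.24, 1.63 and 3.01 CPM in Model and at 4.56, 7.91 and 7.70 CPM in Blank. Tek, the angiopoietin receptor, was at 28.3, 26.8 and 33.0 CPM in Model and at 39.8, 48.6 and 48.3 CPM in Blank, and Esam, a junction protein, was at 26.8, 16.0 and 18.5 CPM in Model and at 34.2, 36.3 and 35.4 CPM in Blank. All 4 separated, as did Gpihbp1. With the muscle score as a covariate the endothelial median was 0.30, on the other side of 0.

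List medians for cells around vessels and in tendon also crossed 0 with the muscle score as a covariate. Of 13 pericyte and smooth muscle genes 4 separated lower (30.8%), with a median of -0.65: smooth muscle myosin Myh11 was at 13.3, 5.68 and 17.3 CPM in Model and at 22.1, 27.6 and 19.9 CPM in Blank, and smooth muscle actin Acta2 at 13.2, 5.14 and 21.0 CPM in Model and at 21.6, 31.1 and 24.9 CPM in Blank. Model3 came close to the Blank libraries for both, and Lmod1 and Cnn1, also contractile genes of smooth muscle, stood lower at log2 fold changes of -2.07 (SE 0.98) and -2.02 (SE 1.27). Of 19 tendon and fibroblast genes 5 separated lower (26.3%), all following muscle, with a median of -0.26. Tnmd, tenomodulin of tendon, was at 0.407, 0 and 6.03 CPM in Model and at 17.4, 10.1 and 15.2 CPM in Blank, and the matrix gene Dpt was at 9.75, 0.843 and 19.3 CPM in Model and at 48.6, 34.4 and 56.6 CPM in Blank. Clec3b and Col14a1 had log2 fold changes of -1.52 (SE 0.60) and -1.79 (SE 0.74). With the muscle score the medians of these lists were 0.55 and 0.58, and without Model2 or Model3 the tendon median was -0.11 or -0.71.

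Stromal niche genes of the marrow, which hold blood stem cells in place, separated lower for 3 of 12 members (25.0%), none following muscle. Lepr, the leptin receptor that marks marrow stromal cells, was at 54.3, 48.2 and 42.0 CPM in Model and at 59.0, 55.8 and 84.7 CPM in Blank. Gas6, a ligand of TAM receptors, was at 235, 244 and 241 CPM in Model and at 307, 298 and 322 CPM in Blank, and Igfbp5, an IGF-binding protein, was at 327, 288 and 360 CPM in Model and at 375, 370 and 550 CPM in Blank. The gaps of Lepr and Igfbp5 were narrow while that of Gas6 was clear. The unadjusted edgeR p-values of the 3 genes ran from 0.31 to 0.407, and with the muscle score their log2 fold changes were 0.09, 0.01 and 0.20, on the other side of 0.

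**Figure D3:**
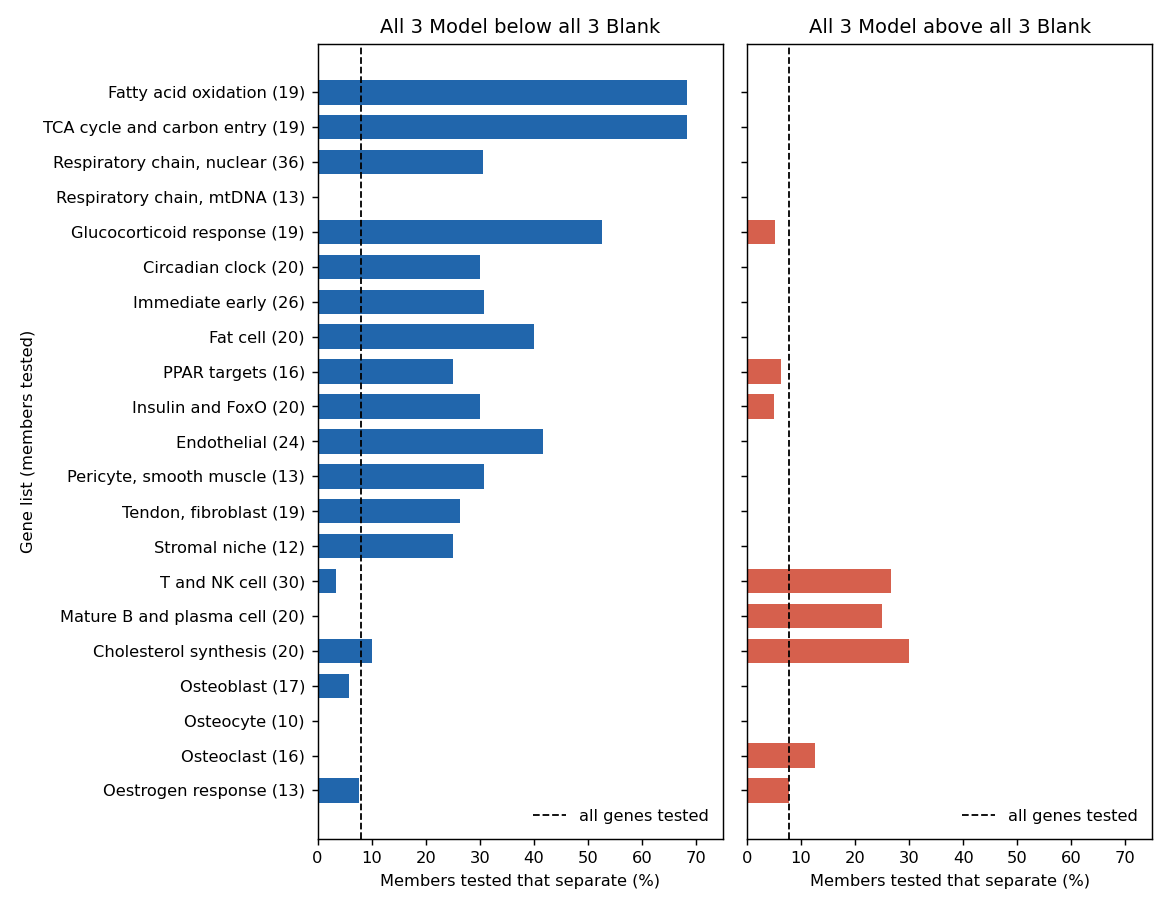
Bars give the percent of tested members of each gene list whose 3 Model libraries all lay below (left) or above (right) the 3 Blank libraries, and dashed lines give the percent over all genes tested (7.99 and 7.69). Fatty acid oxidation and TCA cycle genes reach 68.4% on the left, and cholesterol synthesis, T and NK cell and mature B and plasma cell genes lead on the right at 30.0%, 26.7% and 25.0%.

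Lymphocyte genes were higher in Model. Of 30 T and NK cell genes 26 were higher and 8 separated higher (26.7%, against 7.69% of all genes), with a median log2 fold change of 0.51, while the costimulator gene Icos separated lower. Cd3d, a chain of the T cell receptor complex, was at 2.47, 3.34 and 2.45 CPM in Model and at 0.457, 1.65 and 0.795 CPM in Blank. Cd5, which dampens T cell receptor signals, was at 3.43, 2.67 and 4.70 CPM in Model and at 1.68, 1.46 and 1.81 CPM in Blank. Tbx21, the Th1 and NK cell factor T-bet, was at 1.32, 1.24 and 1.51 CPM in Model and at 0.282, 0.463 and 0.636 CPM in Blank, and Bcl11b, needed for T cell identity, was at 1.25, 1.48 and 1.73 CPM in Model and at 0.726, 0.680 and 0.291 CPM in Blank. These are low levels, and the groups did not overlap for any of the 4. The edgeR adjusted p of these genes lay between 0.409 and 0.479. The list's median stayed between 0.38 and 0.59 when any 1 library was left out and was 0.85 with the muscle score.

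Of 20 mature B and plasma cell genes 19 were higher and 5 separated higher (25.0%), with a median of 0.45. Prdm1, the plasma cell regulator BLIMP1, was at 14.9, 11.4 and 16.2 CPM in Model and at 6.69, 6.85 and 8.41 CPM in Blank. Ms4a1, which encodes CD20, was at 32.5, 54.9 and 39.0 CPM in Model and at 30.0, 29.4 and 27.0 CPM in Blank, and Cd22, an inhibitory B cell receptor, was at 27.3, 26.7 and 29.5 CPM in Model and at 24.9, 16.3 and 20.5 CPM in Blank. Derl3, of endoplasmic reticulum clearance in secretory cells, had a log2 fold change of 0.94 (SE 0.49). The gaps were small for Ms4a1 and Cd22 and wider for Prdm1. Jchain, the joining chain of secreted antibodies, overlapped, at 372, 257 and 232 CPM in Model and at 291, 123 and 363 CPM in Blank. With the muscle score as a covariate the list's median was 0.26 and Ms4a1 had a log2 fold change of -0.19, on the other side of 0.

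Earlier B cell genes separated near the background. Of 17 B precursor genes 15 were higher, with a median of 0.39, and 2 separated higher (11.8%). Pax5, which commits cells to the B lineage, was at 19.8, 50.5 and 45.8 CPM in Model and at 14.9, 16.8 and 11.0 CPM in Blank, and Lef1, a Wnt-responsive factor of early lymphocytes, was at 20.2, 39.9 and 34.8 CPM in Model and at 17.4, 18.2 and 16.5 CPM in Blank. Model1 lay near Blank for both genes. The list's median was 0.22 without Model2, 0.63 without Model1 and -0.0474 with the muscle score as a covariate, where 7 genes were higher and 10 lower.

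Other blood lineages had members on 1 side with few that separated. All 20 megakaryocyte and platelet genes were lower in Model and 0 separated, and their median of -0.75 ran from -2.12 without Model1 to -0.39 without Model2. Of 30 erythroid genes 29 were lower and 2 separated lower (6.67%), with a median of -0.59 that ran from -1.15 without Model1 to -0.32 without Model2. With the muscle score these medians were -0.76 and -0.48. Of 20 neutrophil genes 14 were higher and 0 separated, with a median of 0.31 that was 0.079 without Model1 and -0.80 with the muscle score, where 0 genes were higher and 20 lower.

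Cholesterol synthesis had members separating on both sides. Of 20 genes 6 separated higher (30.0%) and 2 lower. Msmo1, of sterol demethylation, was at 16.3, 17.3 and 16.5 CPM in Model and at 10.3, 15.2 and 11.4 CPM in Blank. Dhcr7, the last reductase of the pathway, was at 10.3, 10.6 and 10.7 CPM in Model and at 8.56, 8.34 and 6.45 CPM in Blank, and Mvd, mevalonate decarboxylase, had a log2 fold change of 0.51 (SE 0.21). The lower genes were Fdps, which makes farnesyl pyrophosphate and is the target of bisphosphonates, at 38.1, 35.9 and 32.0 CPM in Model and at 43.4, 44.8 and 40.8 CPM in Blank, and Fdft1, which uses that product for squalene, at 30.2, 30.3 and 27.0 CPM in Model and at 32.3, 30.4 and 30.9 CPM in Blank. The differences were small throughout, and the median of 0.12 was 0.01 without Model2 and -0.02 with the muscle score.

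**Figure D4:**
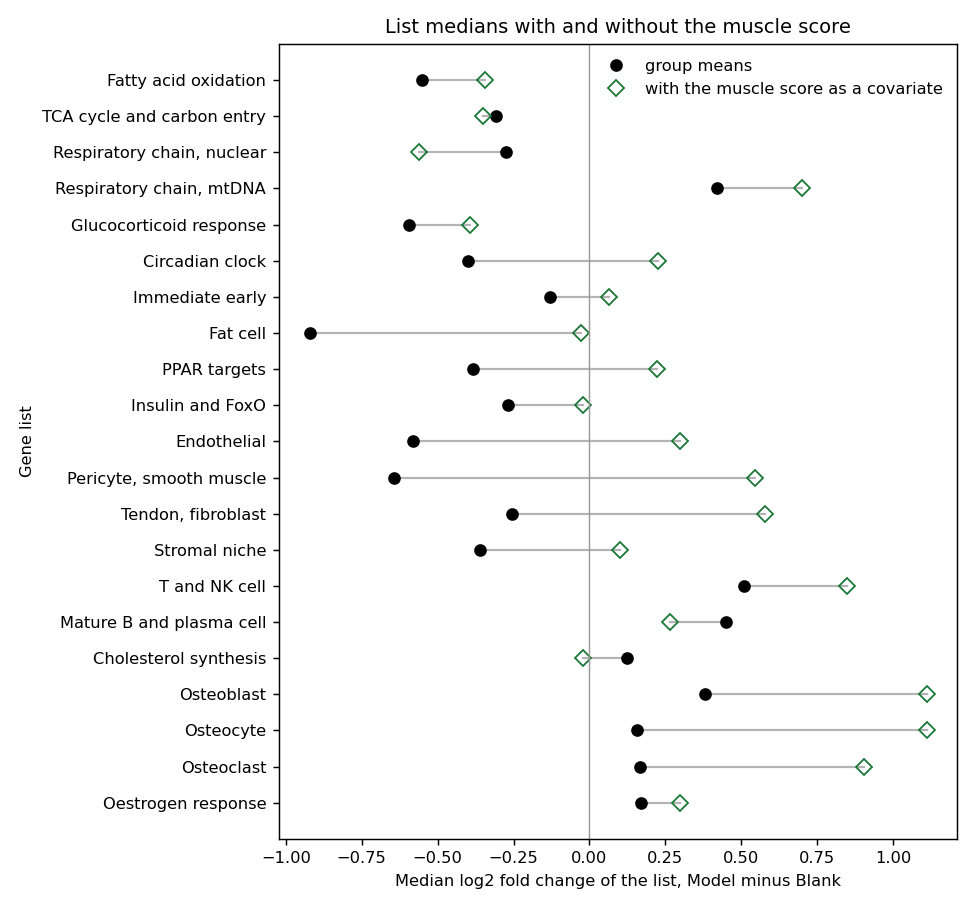
For each gene list, the filled point is the median log2 fold change (Model minus Blank) from group means and the open diamond the median from the fit with the muscle score as a covariate. Oxidation, glucocorticoid, T and NK cell and mature B and plasma cell lists keep their side, whereas endothelial, pericyte, tendon, stromal niche, PPAR, circadian, cholesterol synthesis and immediate early lists cross 0. The muscle contractile list, not shown, also crossed 0 (from -2.65 to 0.499).

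Genes of the bone cells themselves separated at or near the background. Of 17 osteoblast genes 15 were higher in Model (median 0.38), but only Omd separated, and on the lower side. Omd, osteomodulin, a proteoglycan that binds mineral, was at 26.8, 33.8 and 37.3 CPM in Model and at 37.7, 47.3 and 44.1 CPM in Blank. Dlx3 and Dlx5, transcription factors of bone formation, had log2 fold changes of 0.99 (SE 0.75) and 0.46 (SE 0.63) with overlapping libraries. The list's median ran from -0.01 without Blank1 to 0.71 without Blank2, so its direction rested on 1 library, and was 1.11 with the muscle score.

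Of 10 osteocyte genes 0 separated. Sost, which encodes the Wnt inhibitor sclerostin, was at 2.43, 1.99 and 5.70 CPM in Model and at 21.1, 5.70 and 17.3 CPM in Blank, where the highest Model library and the lowest Blank library met. Its log2 fold change of -2.12 (SE 0.86) was 0.72 with the muscle score as a covariate. Ptprz1 and Irx5 had 0.54 (SE 0.66) and 0.44 (SE 0.73), and Wnt1, a ligand of bone formation, lay at 0.197 to 0.257 CPM in Model and at 0.159 to 0.524 CPM in Blank. The osteocyte median of 0.16 was -0.39 without Model3, also below 0 without Blank1, and 1.11 with the muscle score.

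Of 16 osteoclast genes 2 separated higher (12.5%) and 12 were higher, with a median of 0.17 that was -0.10 without Model3, also below 0 without Blank1, 0.49 without Blank2 and 0.90 with the muscle score. Tcirg1, the osteoclast subunit of the proton pump that acidifies the resorption pit, was at 100, 109 and 99.5 CPM in Model and at 55.2, 86.8 and 74.9 CPM in Blank. Mmp9, the gelatinase of osteoclasts and neutrophils, was at 1150, 1150 and 1100 CPM in Model and at 534, 1040 and 715 CPM in Blank. The Model libraries agreed closely for both genes and the Blank libraries were scattered. Car2, carbonic anhydrase, lay the other way with overlap (log2 fold change -0.43, SE 0.42), and Oscar, a costimulatory receptor, had 0.45 (SE 0.33).

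In the oestrogen response list, 1 of 13 genes separated in each direction (7.69%), the share of all genes. Rara, a retinoic acid receptor that oestrogen induces in breast cells, was at 43.6, 36.6 and 45.4 CPM in Model and at 28.1, 33.0 and 33.3 CPM in Blank. Nrip1, a corepressor that oestrogen receptors induce and bind, was at 28.7, 18.5 and 22.5 CPM in Model and at 28.9, 29.4 and 32.3 CPM in Blank. Both gaps were small, that of Nrip1 the smaller. Rara had an r of 0.907 with muscle in the other groups, although here muscle was lower in Model and Rara higher. Myb and Pdzk1 had 0.39 (SE 0.22) and 0.51 (SE 0.34) with overlapping libraries.

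Small nucleolar RNA (snoRNA) entries formed the class with the largest share of separating genes. These RNAs guide the modification of ribosomal RNA and are cut from the introns of host genes, most of which encode ribosomal or translation proteins. Of 169 entries tested 150 were higher in Model and 47 separated higher (27.8%), while Snord17 separated lower, and the median log2 fold change was 0.79, or 0.56 with the muscle score. Entries are not all separate measurements, since near-identical copies may share reads. AABR07071004 and AABR07071006, both separating higher, were at 0.140, 0.169 and 0.122 CPM and at 0.140, 0.169 and 0.135 CPM in Model. No snoRNA entry passed the test, and the smallest edgeR adjusted p was 0.401. The class took 0.00632%, 0.00871% and 0.00851% of the counts in Model and 0.00417%, 0.00602% and 0.00405% in Blank, without overlap, and the median entry had 93 counts over the 6 libraries. Mature snoRNAs have no poly(A) tail and the libraries were poly(A)-selected, and which form of these RNAs was counted was not tested.

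Most host genes did not separate, nor did most genes tested (7.69% separated higher and 7.99% lower). Of the 169 entries 108 lie inside 70 tested hosts, whose median log2 fold change was 0.01, and 95 of the 108 had a higher log2 fold change than their host. For the 32 separating entries inside 23 hosts, 0 of the hosts separated higher and 1, Atp5f1b, lower, and the log2 fold changes of these hosts ran from -0.47 to 0.43 with a median of 0.10. With so few hosts, these counts are too small to set apart from the shares of all genes. SNORA70, inside Rpl10, was at 1.76, 1.81 and 2.34 CPM in Model and at 1.02, 1.66 and 1.05 CPM in Blank. It was chosen after its values were seen, for its counts, and its host had a log2 fold change of -0.03 with overlapping libraries. Other classes stood closer to the background: genes with retained-intron transcripts separated higher in 13.1%, microRNA entries in 14.8% and protein-coding genes in 7.18%. Intronic or precursor RNA was not measured apart from spliced RNA, and its part in the snoRNA counts was not tested.

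**Figure D5:**
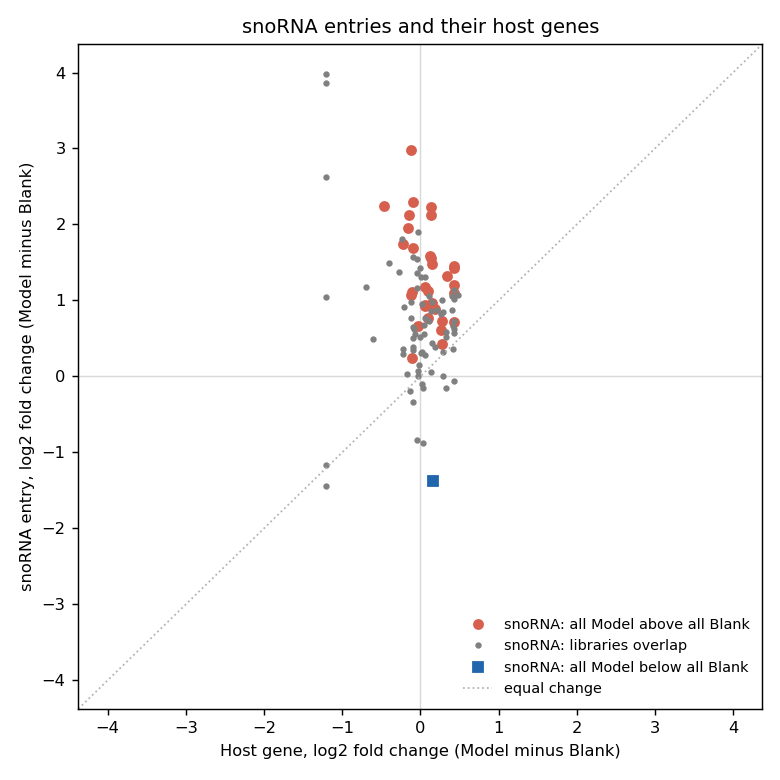
Each point is 1 of the 108 snoRNA entries that lie inside a tested host gene, with the log2 fold change (Model minus Blank) of the host on the x axis and of the snoRNA on the y axis; the dotted line marks equal values. 95 of the 108 points lie above the line, and hosts of entries separating higher run from -0.47 to 0.43.

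A few entries were at or near 0 in 1 group. AABR07051665 was at 0 in all Model libraries and at 2.42, 3.31 and 1.43 CPM in Blank, and AABR07051726 was at 0.0843, 0.0843 and 0.257 CPM in Model and at 13.0, 0.376 and 3.47 CPM in Blank. AABR07051715 lay the other way, at 0.941, 2.57 and 2.23 CPM in Model and at 0.202, 0.217 and 0.358 CPM in Blank. All 3 carry only clone names and lie within 17.8 to 20.8 Mb of chromosome 3 in the files' own coordinates. Their levels also varied between libraries of the other groups. AABR07051665 was at 0 in SYT3 and at 3.37 CPM in SYT1. AABR07051726 was at 0.251 CPM in SYT3 and at 5.11 CPM in SYT1, and AABR07051715 at 1.08 and 0.257 CPM. Of 33 genes tested in that window, set after the entries were seen, 32 carry only clone names. In the window 7 separated lower and 3 higher, beside 7.99% and 7.69% of all genes. In all, 17 of the 33 were lower and 16 higher.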

How the data were processed

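Bone RNA was poly(A)-selected and sequenced as paired ends with unique molecular identifiers in a dUTP-marked kit, per the labels' protocols. Tools listed in the submitters' processing notes are HISAT2 2.0.4, StringTie 1.3.4d, cutadapt 1.9, edgeR, DESeq2 and UMI-tools. Their roles, the build, the annotation, the counter, its strand setting and whether UMI duplicates were removed are not stated, so overlapping genes, antisense genes and near-identical copies may share reads. The deposited table holds whole-number counts and, per the file headers, FPKM values for 22468 genes in 15 libraries, and 2261 genes share a symbol.

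Counts were tested as deposited with edgeR 4.0.16 in R 4.3.3 (filterByExpr, which left out 4811 genes, TMM scaling, robust quasi-likelihood fit of all 15 libraries in 5 groups, 10 residual degrees of freedom, biological coefficient of variation 42.7%), two-sided, with Benjamini-Hochberg adjustment over 17657 genes at 0.05, and the script was tested on simulated counts. CPM are TMM-scaled. The authors' FPKM served for a level filter and for limma 3.58.1. The standard error is the log2 fold change over the root of F. No 2 libraries of 1 group agreed within sampling noise. List scores are medians of log2 CPM (prior count 2) minus the mean of the Model and Blank libraries. The muscle score (189 genes) is the median of log2 CPM (prior count 2) minus the mean of 15 libraries. A lower gene follows muscle at Pearson r of 0.5 or more, a higher gene at -0.5 or less, over the 9 libraries outside the comparison, given with no p. Members of the muscle lists were dropped from other lists.

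Members and lists were chosen with earlier results of these data known. Named are up to 12 genes per direction (a symbol of their own, mean FPKM of 1 or more in a group, separating, beyond muscle, smallest p), up to 4 members of each described list by smallest p, and every gene past the threshold. Hadha, Adipoq, Jchain, Cs, Samm50, Mt-co1, Nr3c1, Icos, Pax5, Lef1, Fdft1, Atp5f1a, Gadd45g and the named snoRNAs were chosen after their values were seen. Promoters were matched by gene ID to the RefSeq table of GRCr8. Alternatives were RLE or no scaling factors, all genes unfiltered, only genes with a mean FPKM of 5 or more, deposited FPKM, DESeq2 1.42.0, limma on log2(FPKM + 1) or log2(FPKM + 0.1), the 6 libraries alone, the muscle score as a covariate, limits of r of 0.3 and 0.7, the muscle lists alone, a replicate block, and each library left out in turn.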

Additional observations from a re-analysis of the deposited data

How the results depend on the processing

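The edgeR count of 4 genes was 0 with the muscle score as a covariate, 0 with no scaling factors, 8 with only the 6 libraries compared, 289 with DESeq2, 40 with limma on log2(FPKM + 1) and 2 with limma on log2(FPKM + 0.1), and it ran from 0 to 5 when 1 library was left out. With the replicate number as a block it was 0. The correlations of deviations between same-numbered Model and Blank libraries were 0.209, 0.239 and 0.0584, not all over 0.1, so the numbers are not taken as a pairing. With a mean FPKM of 5 or more, 712 genes separated higher and 548 lower, of which 660 and 340 lay beyond muscle. Setting aside only the muscle lists left 1241 lower genes. With limits of r of 0.3 and 0.7, 577 and 855 lower genes lay beyond muscle, and 1126 and 1339 higher genes. Leaving out 1 library, which by itself lets more genes separate, gave 1675 to 2856 higher and 1707 to 2869 lower, and beyond muscle 1560 to 2615 and 955 to 2004. Differences in shares of counts (Model minus Blank, percentage points) then ran from 2.23 to 4.54 for the mitochondrial genome, -5.89 to -2.58 for haemoglobin, -0.977 to 0.774 for ribosomal proteins and -1.24 to -0.919 for the muscle lists. Log2 fold changes changed sign with the muscle score as a covariate for Sost (0.72), Wnt1 (0.74), Lmod1 (0.64), Myh11 (0.39), Acta2 (0.50), Lepr (0.0915), Igfbp5 (0.20), Gas6 (0.0126), Dpt (0.34), Col14a1 (0.20), Tnmd (0.64), Ms4a1 (-0.19), Plin5 (0.0454) and Fosb (0.22), and the cause was not tested. Under RLE, no scaling factors and the other alternatives tried, no log2 fold change of the genes named by the rules of selection changed sign where the gene could be fitted. Genes chosen after their values were seen were left out of this check. The osteocyte median changed sign with a mean FPKM of 5 or more, as did that of the mitochondrial ribosome, and the cytosolic ribosome median did with limma.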

Other observations

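Other lists showed smaller shares in both directions. Of 18 genes of the unfolded protein response, which restores folding in the endoplasmic reticulum, 15 were higher in Model and 4 separated higher (22.2%), with a median log2 fold change of 0.18. Hsp90b1, a chaperone of that compartment, was at 540, 596 and 573 CPM in Model and at 476, 371 and 427 CPM in Blank, and Creld2, a secreted folding factor, was at 37.2, 54.5 and 46.7 CPM in Model and at 36.7, 29.8 and 30.8 CPM in Blank. Creld2 had an r of -0.66 with the muscle score in the other groups and Hsp90b1 one of -0.18. Of 30 DNA repair genes 5 separated higher (16.7%) and 0 lower, and of 30 proteasome subunits 6 separated lower and 0 higher, 28 of them lower in Model at a median of -0.11. With the muscle score as a covariate the 3 medians were 0.0995, 0.007 and -0.55, and the DNA repair median of 0.0773 was -0.0272 without Model1. These genes passed no test, and both named genes were chosen after their values were seen.

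Stfa2l1, a stefin-like protease inhibitor gene, was listed at 0 in all 3 Blank libraries and at 9.27, 3.44 and 0.932 CPM in Model. Ctrb1, a chymotrypsinogen gene of the pancreas, was at 5.44, 1.50 and 2.96 CPM in Model and at 0, 0 and 0.0530 CPM in Blank. Glul, glutamine synthetase, was at 398, 334 and 364 CPM in Model and at 658, 507 and 622 CPM in Blank, without overlap and without following muscle (r of -0.05). Dalrd3, a factor of tRNA methylation, was at 22.3, 35.8 and 32.2 CPM in Model and at 17.9, 18.3 and 17.1 CPM in Blank, and Skp2, which marks cell cycle inhibitors for degradation, was at 21.6, 30.5 and 24.6 CPM in Model and at 15.5, 16.6 and 15.5 CPM in Blank. Both had an r at or under -0.5 with the muscle score (-0.57 and -0.51) and so stood outside the set beyond muscle. The genes of this paragraph were chosen after their values were seen, with edgeR adjusted p between 0.282 and 0.362.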
